A study of Arabidopsis thaliana with 18 samples.

Results

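The plant aquaporins were followed as 35 genes, out of 32833 listed, in leaf RNA of 3 Arabidopsis thaliana lines kept in air or submerged. The members were taken by locus from a list of the plasma membrane (PIP, 13 genes), tonoplast (TIP, 10 genes), NOD26-like (NIP, 9 genes) and small basic (SIP, 3 genes) intrinsic proteins, and all 35 loci were listed. Isoform numbers are written with a hyphen, as in protein databases, where RefSeq writes a semicolon.

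Aquaporins are membrane channels that let water, and in some isoforms small solutes, cross a membrane along its gradient. PIPs sit in the plasma membrane and carry much of the water that moves between cells, TIPs sit in the membrane of the vacuole, SIPs are found in the endoplasmic reticulum, and NIPs carry uncharged solutes such as boric acid, glycerol and lactic acid. In flooded plants PIP channels are known to close when the cytosol turns acid, and NIP2-1 is known from Arabidopsis roots as a lactic acid channel whose transcript rises when oxygen is short.

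The study asked how leaves respond to submergence with and without the light receptor gene PHYA or the transcription factor genes EIN3 and EIL1 of the ethylene pathway. Leaves came from 4-week-old plants of wild type (WT), of phyA-211, a mutant of PHYA, and of ein3eil1, mutated in both EIN3 and EIL1 with alleles that the labels do not give. Each line was either left in air or put under water for 6 h, which gave 6 groups of 3 libraries and 18 libraries in all. All 18 titles also carry the label mock, which the labels do not explain. Values are TPM, a share of each library's transcripts scaled by gene length, and keep no read depth. The labels do not say whether replicates were separate plants, so each p-value measures the spread between these libraries only. That spread was pooled over the 6 groups for each gene, while the groups differed in spread. The median SD of log2 values over genes ran from 0.0973 in submerged WT to 0.359 in submerged phyA-211. PHYA stood at 1.41 ± 0.364 TPM (SD, n = 3) in phyA-211 in air against 11.7 ± 1.32 TPM in WT, and at 10.3 ± 2.64 against 22.9 ± 0.886 TPM under submergence. EIN3 in ein3eil1 stood at 27.5 ± 0.701 TPM in air and, submerged, at 44.5 ± 4.27 TPM, against 59.7 ± 3.37 and 54.5 ± 4.23 TPM in WT, and EIL1 was 16.6 ± 0.448 and 10.3 ± 3.01 TPM against 41 ± 2.82 and 67.1 ± 2.21 TPM. Leaf mesophyll markers summed to between 8577 and 41027 TPM in every library, while the root marker list summed to at most 5.2 TPM with RHD6 and EXPA7 at 0 throughout. The first submerged phyA-211 library stood apart: across genes it correlated at 0.96 with a submerged WT library and at 0.918 and 0.932 with the other submerged phyA-211 libraries. In bulk leaf RNA, fewer cells of a type and less RNA per cell cannot be told apart.

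The sequences printed first are the 250 bases upstream of the annotated transcript start of 3 members: NIP2-1, the member of largest increase; PIP1-4, which had the largest decrease in WT; and TIP1-2, the most abundant TIP. They were read from the RefSeq build TAIR10.1, 5′ to 3′ on the gene's strand, at chr2:14515989-14516238 (minus strand), chr4:187681-187930 (minus strand) and chr3:9723905-9724154 (minus strand). Capitals mark matches, on either strand, to the anaerobic core AAACCA or to the GCC box GCCGCC, which proteins of the ERF family, to which EIN3 and EIL1 do not belong, are known to bind.
NIP2-1: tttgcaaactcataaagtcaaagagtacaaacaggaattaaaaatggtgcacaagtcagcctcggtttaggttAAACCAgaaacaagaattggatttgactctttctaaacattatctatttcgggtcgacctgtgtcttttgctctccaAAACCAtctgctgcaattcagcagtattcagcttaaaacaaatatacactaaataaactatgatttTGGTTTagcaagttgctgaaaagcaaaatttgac
PIP1-4: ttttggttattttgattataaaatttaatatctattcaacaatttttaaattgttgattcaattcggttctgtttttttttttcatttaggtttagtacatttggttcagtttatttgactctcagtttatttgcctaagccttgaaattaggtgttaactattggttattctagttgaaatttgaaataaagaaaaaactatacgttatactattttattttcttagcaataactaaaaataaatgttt
TIP1-2: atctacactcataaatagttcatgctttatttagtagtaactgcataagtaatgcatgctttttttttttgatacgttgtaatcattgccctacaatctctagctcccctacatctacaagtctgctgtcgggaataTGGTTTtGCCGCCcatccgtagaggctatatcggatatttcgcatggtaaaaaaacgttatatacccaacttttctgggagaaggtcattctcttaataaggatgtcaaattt
NIP2-1 held AAACCA 3 times, at 177, 100 and 34 bases before the start, and was the only one of the 35 members with 3 or more matches, a number reached by 0.973% of the 27438 promoters of this length. PIP1-4 held none of the motifs searched. TIP1-2 held 1 AAACCA match and the 1 GCCGCC match among the members, against 1.87% of all promoters with GCCGCC. At least 1 AAACCA stood in 9 of 35 members (25.7%) and in 27.3% of all promoters, the G-box CACGTG stood in 0 members and 6.49% of all promoters, and CACGCGC stood in TIP1-3 alone and in 1.06% of all promoters. A match describes these letters and is not a site.

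In air, 3 genes made up more than 1 in 2 aquaporin transcripts of WT leaves: TIP1-2 at 675 TPM, PIP2-1 at 657 TPM and PIP1-2 at 558 TPM on average, together 55.5% of the summed level of the family. After submergence the summed level of WT went from 3670, 3063 and 3474 TPM to 2248, 2256 and 2300 TPM. The phyA-211 libraries summed to 1896, 3470 and 3122 TPM in air and 1492, 2167 and 2117 TPM under submergence. For ein3eil1 the sums were 3824, 3266 and 2821 TPM in air and 1637, 1415 and 1273 TPM under submergence. Submerged and air libraries did not overlap in WT or ein3eil1, and in phyA-211 they overlapped because the first air library was the lowest of its group. That library was also the lowest of its group in 23 of the 28 members tested, and the first submerged phyA-211 library was the lowest in 21 of 28.

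The make-up of the family moved as well. PIPs gave 63.5% ± 1.12 (SD, n = 3) of aquaporin TPM in WT air and 44.3% ± 0.337 under submergence, 69.6% ± 0.845 and 51.3% ± 7.17 in phyA-211, and 64.6% ± 1.61 and 58.1% ± 2.52 in ein3eil1. TIPs gave 31.6% ± 1.51 and 50.4% ± 0.718 in WT and 24.7% ± 2.62 and 40% ± 6.85 in phyA-211, but 27.8% ± 2.07 and 24.5% ± 4.4 in ein3eil1, where the 2 conditions overlapped. NIPs were a minor class in every group except submerged ein3eil1, where they gave 10.1% ± 1.52 of the family against 1.83% ± 0.399 in air. The most abundant members of submerged WT leaves were TIP1-2, TIP2-1 and PIP1-5 at 750, 339 and 238 TPM. In submerged ein3eil1 the order was PIP2-7, TIP1-2, PIP1-5 and NIP2-1 at 301, 189, 132 and 125 TPM, where the range of TIP1-2 overlapped those of PIP2-7, PIP1-5 and NIP2-1.

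**Figure D1:**
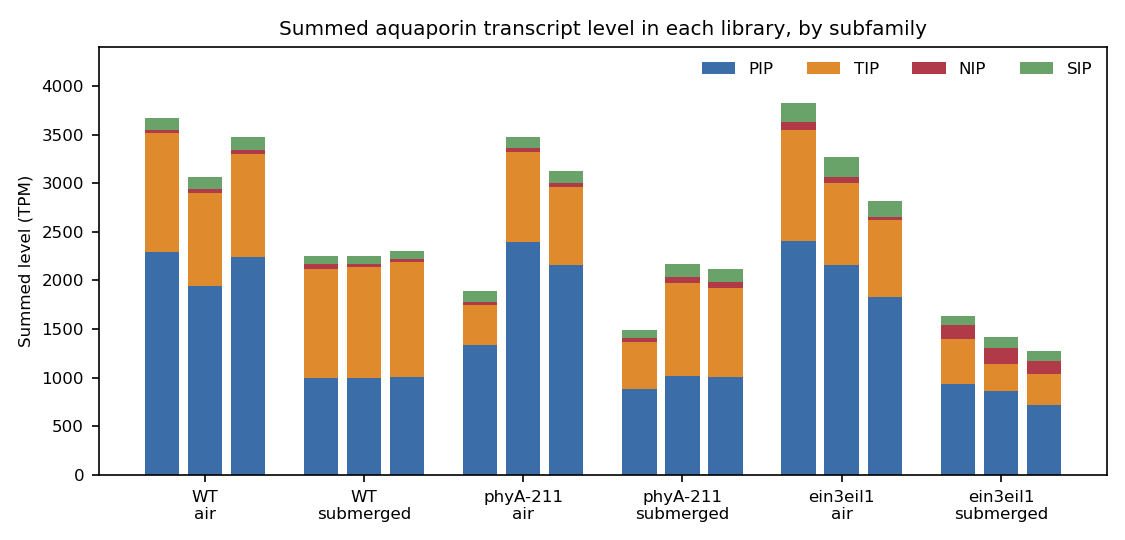
Summed level of the aquaporin genes in each library in TPM, 1 stacked bar per library, coloured by subfamily and grouped by line and condition. WT libraries lie between 3063 and 3670 TPM in air and between 2248 and 2300 TPM under submergence, and NIPs reach 138 to 158 TPM only in submerged ein3eil1.

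Of the 35 members, 28 were at 1 TPM or above in 3 or more libraries and entered the test: 13 of 13 PIPs, 5 of 10 TIPs, 7 of 9 NIPs and 3 of 3 SIPs. NIP2-1 passed through submerged libraries only, and PIP2-4 and NIP1-1 through air libraries only. Each fold change was taken between group means on the log2(TPM + 1) scale, where a change of a low gene is understated, and a gene is called at a Benjamini-Hochberg adjusted p under 0.05 over the 20302 genes tested, in a limma fit of all 18 libraries. In WT, 4 members were called higher and 15 lower under submergence, where 18.9% and 38% of all genes tested were (56.9% in all). In phyA-211, 5 were higher and 15 lower, against 27.3% and 23.9% of all genes (51.2% in all). In ein3eil1, 1 was higher and 19 lower, against 17% and 47.3% of all genes (64.2% in all). The median log2 fold change of the 28 members was −0.46 in WT, −0.58 in phyA-211 and −1.05 in ein3eil1, beside −0.32, 0.07 and −0.48 over all genes. With each library centred on its median, which shifts the all-gene medians to 0.15, −0.00 and 0.05, the counts became 4 higher and 10 lower in WT, 4 and 15 in phyA-211, and 3 and 13 in ein3eil1. The shares of all genes then became 32.2% higher and 22.3% lower in WT, 26.9% and 26.7% in phyA-211, and 30.5% and 26.2% in ein3eil1. Without the first submerged phyA-211 library 5 members were higher and 14 lower in phyA-211. The 5 higher became 2 without the first phyA-211 air library and 3 without the second air or the third submerged library, and the 1 higher in ein3eil1 became 2 without its second air library.

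By pattern, 11 members fell in all 3 lines: PIP1-2, PIP1-4, PIP2-1, PIP2-2, PIP2-5, PIP2-6, TIP1-1, TIP2-2, NIP1-2, NIP6-1 and SIP2-1, which is 11 of 28 beside 16.4% of all genes tested (8 of 28 beside 11.9% after median centring). Of these, 8 were called lower in all 3 lines under median centring and quantile normalization too, the exceptions being PIP2-5, PIP2-6 and NIP1-2, and 5 were under every alternative run: PIP1-2, PIP1-4, PIP2-1, TIP1-1 and TIP2-2. NIP2-1 was the 1 member called higher in all 3 lines, as were 8.02% of all genes (2 members and 14.6% after median centring). PIP1-5 and TIP2-1 rose in WT and phyA-211 and were not called in ein3eil1, and PIP2-3 fell in WT and phyA-211 and was not called in ein3eil1. PIP1-3 and TIP1-2 were called lower in ein3eil1 and in neither of the other lines, and NIP3-1 and PIP2-7 were called in none.

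**Figure D2:**
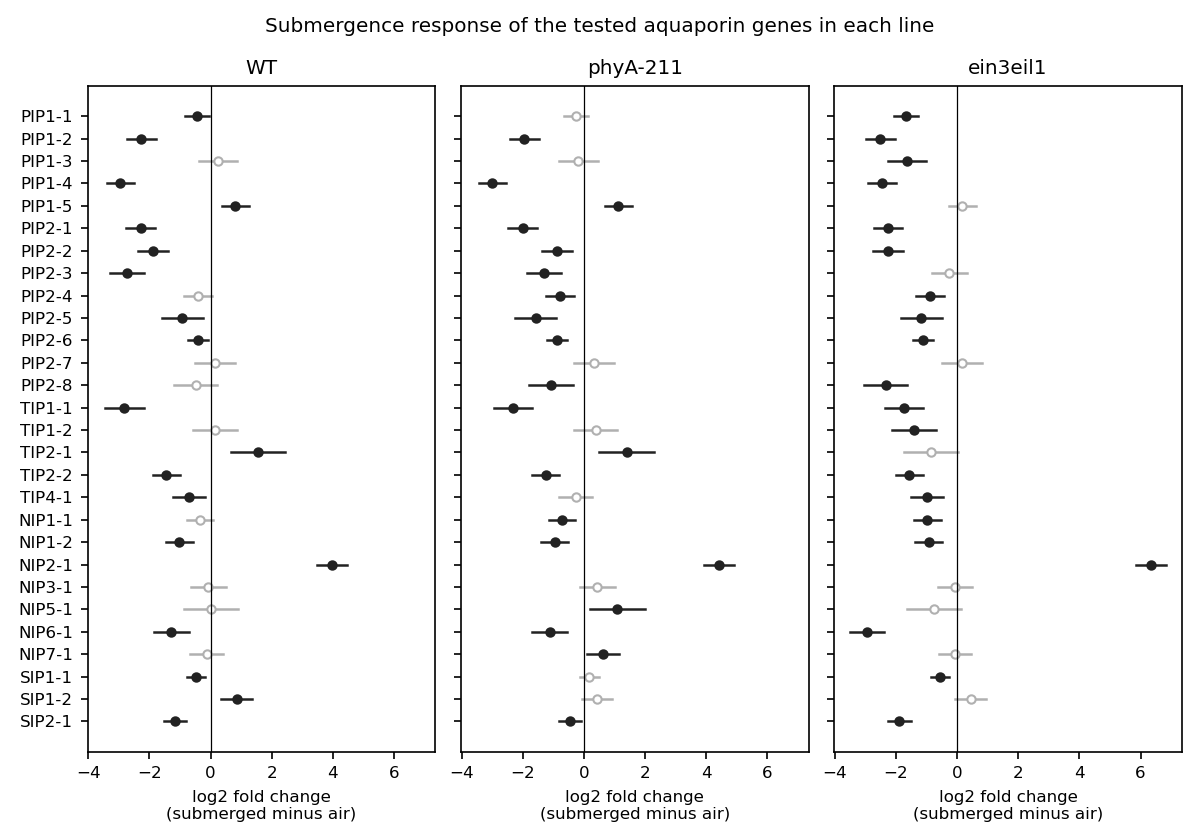
Log2 fold change under submergence (submerged minus air, on log2(TPM + 1)) of the 28 tested aquaporin genes in WT, phyA-211 and ein3eil1. Points are estimates with 95% confidence intervals, filled where called. NIP2-1 lies far to the right in every line, at 3.98, 4.42 and 6.35, while PIP1-2, PIP1-4, PIP2-1 and TIP1-1 lie at −1.75 or lower in all 3.

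Among the PIPs, the abundant PIP2-1 and PIP1-2 and the less abundant PIP1-4 each fell by 1.95 or more on the log2 scale in every line. PIP2-1 (AT3G53420), a water and hydrogen peroxide channel and the PIP of highest mean over all 18 libraries, was at 652, 581 and 737 TPM in air and 133, 136 and 129 TPM under submergence in WT (log2 fold change −2.29 ± 0.22 SE, adjusted p = 4.55e-07). PIP2-1 in phyA-211 was at 432, 819 and 675 TPM in air and 119, 164 and 187 TPM under submergence (log2 fold change −2.0 ± 0.22 SE, adjusted p = 1.69e-06). In ein3eil1, PIP2-1 was at 610.4, 561 and 434 TPM in air and 131, 98.8 and 103 TPM under submergence (log2 fold change −2.26 ± 0.22 SE, adjusted p = 3.96e-07). Every air library lay above every submerged library, and the drop was from 4.09-fold to 4.94-fold in the 3 lines.

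PIP1-2 (AT2G45960), a PIP1 known in Arabidopsis for water and carbon dioxide permeability, went from 619.8, 476 and 577 TPM in air to 116, 112 and 114 TPM under submergence in WT (log2 fold change −2.27 ± 0.22 SE, adjusted p = 5.8e-07). Its levels in phyA-211 were 317, 623 and 557 TPM in air and 121, 127 and 122 TPM under submergence (log2 fold change −1.95 ± 0.22 SE, adjusted p = 2.6e-06). Those in ein3eil1 were 611, 639 and 450.1 TPM in air and 123, 78.2 and 96.7 TPM under submergence (log2 fold change −2.51 ± 0.22 SE, adjusted p = 1.48e-07). Again no submerged library reached the level of an air library. PIP1-4 (AT4G00430), a PIP1 known to pass hydrogen peroxide in leaves, went from 115, 107 and 134 TPM in air to 15.3, 15.1 and 12.8 TPM under submergence in WT (log2 fold change −2.96 ± 0.21 SE, adjusted p = 1.6e-08). PIP1-4 in phyA-211 went from 78.5, 114 and 154 TPM in air to 11.3, 14.2 and 14 TPM under submergence (log2 fold change −2.99 ± 0.21 SE, adjusted p = 1.06e-08). In ein3eil1, PIP1-4 went from 241, 202 and 165 TPM in air to 35.7, 41.1 and 30.9 TPM under submergence (log2 fold change −2.46 ± 0.21 SE, adjusted p = 8.85e-08). The groups of each line were separate, and submerged ein3eil1 stayed higher than submerged WT (log2 difference 1.25 ± 0.21 SE, adjusted p = 0.000179). The submergence calls of PIP2-1, PIP1-2 and PIP1-4 held under every alternative run.

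**Figure D3:**
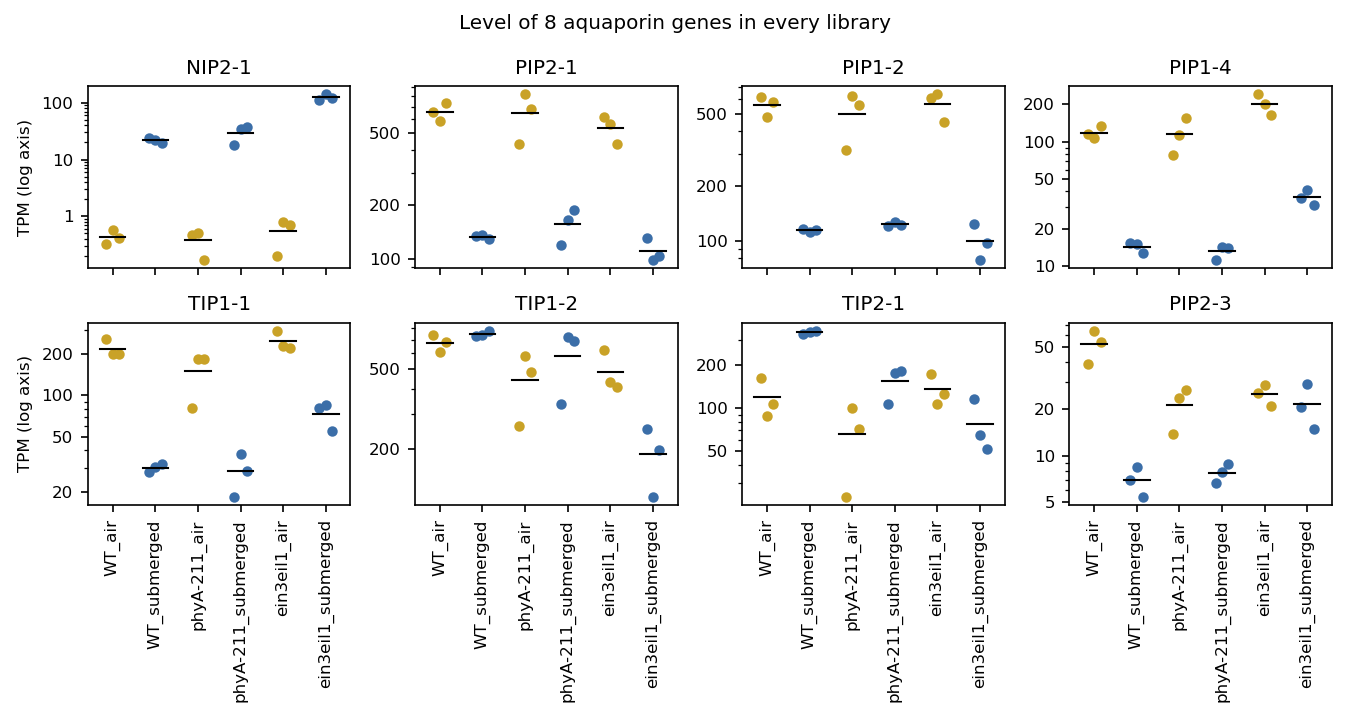
Level of 8 aquaporin genes in each of the 18 libraries in TPM on log axes, with gold points for air libraries, blue points for submerged libraries and a line for the mean of 3. Submerged libraries of PIP2-1, PIP1-2, PIP1-4 and TIP1-1 lie below all air libraries of their line, and NIP2-1 shows the reverse, with 114 to 141 TPM in submerged ein3eil1.

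PIP2-2 (AT2G37170) and PIP2-3 (AT2G37180), neighbouring genes whose products are plasma membrane water channels, share much of their sequence. Their coding sequences are 94.8% identical over 858 bases with 45 substitutions, and they were the only pair of 595 among the members to share any 100-base window, with a longest identical run of 242 bases. Coding bases 415 to 474 of each, read from TAIR10.1 on chromosome 2 and shown because they hold 10 of the differences (in capitals), were:
PIP2-2: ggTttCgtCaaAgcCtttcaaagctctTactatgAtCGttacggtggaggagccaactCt
PIP2-3: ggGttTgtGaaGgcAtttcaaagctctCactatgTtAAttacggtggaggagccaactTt
Reads from shared windows could be split between the 2 genes, so each value is uncertain to that extent. PIP2-2 in WT went from 125, 106 and 102 TPM in air to 30.4, 31.5 and 26.4 TPM under submergence (log2 fold change −1.88 ± 0.23 SE, adjusted p = 5.2e-06). In phyA-211, PIP2-2 went from 73.1, 119 and 87.7 TPM in air to 33.8, 62.2 and 57.5 TPM under submergence (log2 fold change −0.87 ± 0.23 SE, adjusted p = 0.00456). That call was lost in a fit of only the libraries compared (adjusted p = 0.0658). Levels of PIP2-2 in ein3eil1 went from 61.4, 85.8 and 64.6 TPM in air to 17.3, 12.6 and 12.1 TPM under submergence (log2 fold change −2.25 ± 0.23 SE, adjusted p = 5.58e-07). No groups overlapped within a line, and the fall was 3.77-fold in WT, 1.82-fold in phyA-211 and 5.03-fold in ein3eil1.

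PIP2-3, also known as the drought-induced gene RD28, fell in WT and phyA-211 and was not called in ein3eil1. PIP2-3 in WT went from 38.9, 63.8 and 54.2 TPM in air to 6.92, 8.49 and 5.45 TPM under submergence (log2 fold change −2.73 ± 0.27 SE, adjusted p = 4.96e-07). In phyA-211, PIP2-3 went from 13.8, 23.6 and 26.4 TPM in air to 6.65, 7.82 and 8.88 TPM under submergence (log2 fold change −1.30 ± 0.27 SE, adjusted p = 0.000707). Its values in ein3eil1 were 25.3, 28.6 and 21 TPM in air and 20.6, 29 and 14.8 TPM under submergence (log2 fold change −0.25 ± 0.27 SE, adjusted p = 0.43), and these groups overlapped. PIP2-3 was also the one member called between phyA-211 and WT in air (4.01% of all genes were called, 1.63% higher and 2.38% lower), at log2 difference −1.28 ± 0.27 SE, adjusted p = 0.0121, a call lost without the second WT air library (adjusted p = 0.0792). The submergence response of PIP2-3 differed between ein3eil1 and WT (difference 2.49 ± 0.38 SE, adjusted p = 0.00021), between phyA-211 and WT (difference 1.43 ± 0.38 SE, adjusted p = 0.0216) and between phyA-211 and ein3eil1 (difference −1.05 ± 0.38 SE, adjusted p = 0.0322). The first of these held under every alternative. The second was lost without the third submerged WT library or without the second or the third submerged phyA-211 library (adjusted p 0.0543 to 0.0571), and the third without any of 7 of its 12 libraries (adjusted p 0.054 to 0.0814).

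The remaining PIP1 genes encode isoforms that reach the plasma membrane mainly in company with a PIP2. PIP1-1 (AT3G61430) in WT was at 144, 150.3 and 165 TPM in air and 112, 106 and 116 TPM under submergence (log2 fold change −0.45 ± 0.18 SE, adjusted p = 0.0466), a call lost without any 1 of the 6 libraries (adjusted p 0.0659 to 0.13) and a direction lost after median centring (0.01). PIP1-1 in phyA-211 was at 135, 184 and 162 TPM in air and 128, 135 and 137 TPM under submergence (log2 fold change −0.25 ± 0.18 SE, adjusted p = 0.267). In ein3eil1, PIP1-1 fell from 130.4, 121 and 94.8 TPM in air to 39.2, 24.7 and 44.5 TPM under submergence (log2 fold change −1.68 ± 0.18 SE, adjusted p = 1.31e-06). The submerged ein3eil1 libraries were the lowest 3 of all 18. PIP1-3 (AT1G01620) was at 91.1, 65.6 and 65.5 TPM in air and 87.4, 82.8 and 90.3 TPM under submergence in WT (log2 fold change 0.24 ± 0.30 SE, adjusted p = 0.502) and 43.8, 83.2 and 83.2 TPM in air and 57.3, 59.2 and 61 TPM under submergence in phyA-211 (log2 fold change −0.18 ± 0.30 SE, adjusted p = 0.633). In ein3eil1, PIP1-3 fell from 125, 80.5 and 97 TPM in air to 54.8, 22 and 25 TPM under submergence (log2 fold change −1.64 ± 0.30 SE, adjusted p = 0.000185). WT and phyA-211 conditions overlapped and those of ein3eil1 did not. The ein3eil1 response differed from that of WT for PIP1-1 (difference −1.23 ± 0.26 SE, adjusted p = 0.00272) and PIP1-3 (difference −1.88 ± 0.42 SE, adjusted p = 0.0038).

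PIP1-5 (AT4G23400) was the one PIP to rise. PIP1-5 in WT rose from 138, 133 and 134 TPM in air to 234, 240.2 and 239 TPM under submergence (log2 fold change 0.81 ± 0.21 SE, adjusted p = 0.0036). In phyA-211, PIP1-5 rose from 62.9, 129 and 97.7 TPM in air to 207, 208 and 193 TPM under submergence (log2 fold change 1.12 ± 0.21 SE, adjusted p = 0.000298). Its ein3eil1 values were 144, 126 and 88.2 TPM in air and 132, 142 and 122 TPM under submergence (log2 fold change 0.17 ± 0.21 SE, adjusted p = 0.487), with overlapping groups. For PIP1-5 the phyA-211 response was called apart from that of ein3eil1 (difference 0.95 ± 0.29 SE, adjusted p = 0.0167), a call lost with median centring (0.34, adjusted p = 0.435), quantile normalization and only the libraries compared, while the difference for ein3eil1 minus WT was not called after adjustment, with an unadjusted 95% interval of −1.26 to −0.02.

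PIP2-6 (AT2G39010), a PIP2 known from leaf veins, was at 152, 146 and 143 TPM in air and 107, 112 and 109.8 TPM under submergence in WT (log2 fold change −0.42 ± 0.16 SE, adjusted p = 0.0311), a call lost without any 1 of the 6 libraries (adjusted p 0.0551 to 0.0838) and a direction lost after median centring (0.04). PIP2-6 in phyA-211 fell from 109, 153 and 125 TPM in air to 59.5, 75 and 74.3 TPM under submergence (log2 fold change −0.87 ± 0.16 SE, adjusted p = 0.000206). In ein3eil1, PIP2-6 fell from 98.1, 105 and 107 TPM in air to 58.6, 37.7 and 46.1 TPM under submergence (log2 fold change −1.13 ± 0.16 SE, adjusted p = 1.42e-05). Submerged ein3eil1 libraries were the lowest of all. The ein3eil1 response of PIP2-6 exceeded that of WT (difference −0.71 ± 0.22 SE, adjusted p = 0.0256), a call lost without any of 6 of the 12 libraries (adjusted p 0.0508 to 0.0669). That call was also lost with median centring and with quantile normalization.

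PIP2-5 and PIP2-8 were low in every group. PIP2-5 (AT3G54820), known to rise under drought and cold, was at 4.37, 2.12 and 2.68 TPM in air and 1.29, 0.99 and 1 TPM under submergence in WT (log2 fold change −0.92 ± 0.32 SE, adjusted p = 0.0221), a call lost without the first air or the second or the third submerged library (adjusted p 0.0579 to 0.108). PIP2-5 in phyA-211 went from 3.03, 3.27 and 8.18 TPM in air to 0.94, 0.45 and 1.13 TPM under submergence (log2 fold change −1.57 ± 0.32 SE, adjusted p = 0.000645). In ein3eil1, PIP2-5 went from 10.2, 7.82 and 11.7 TPM in air to 5.81, 2.34 and 3.85 TPM under submergence (log2 fold change −1.17 ± 0.32 SE, adjusted p = 0.00467). All 3 lines gave separate groups, and ein3eil1 was above WT in both conditions. PIP2-8 (AT2G16850) was at 5.54, 1.98 and 1.28 TPM in air and 1.34, 1.84 and 1.41 TPM under submergence in WT (log2 fold change −0.49 ± 0.34 SE, adjusted p = 0.224). PIP2-8 in phyA-211 went from 2.24, 2.87 and 5.96 TPM in air to 1.32, 1.03 and 0.93 TPM under submergence (log2 fold change −1.09 ± 0.34 SE, adjusted p = 0.013), a call lost without the third air library (adjusted p = 0.0794). That call was also lost with group-level weights. In ein3eil1, PIP2-8 went from 12, 7.78 and 10.1 TPM in air to 1.67, 0.82 and 1 TPM under submergence (log2 fold change −2.34 ± 0.34 SE, adjusted p = 2.07e-05). WT groups overlapped, and the response differed between ein3eil1 and WT (difference −1.85 ± 0.47 SE, adjusted p = 0.00912).

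Of the other 2 PIPs, PIP2-7 (AT4G35100), an abundant water channel, was not called in any line, with 67.7 to 203 TPM in WT and phyA-211 libraries and 338, 196 and 280.3 TPM in air and 316, 373 and 216 TPM under submergence in ein3eil1. PIP2-4 (AT5G60660) was between 0.1 and 2.22 TPM and was called lower in phyA-211 and ein3eil1. It passed the filter only through 5 air libraries of these lines, and the calls were lost with group-level weights in phyA-211 and with median centring in ein3eil1.

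Among the TIPs, TIP1-1 fell in every line, TIP2-1 rose in WT and phyA-211, and TIP1-2 fell in ein3eil1. TIP1-1 (AT2G36830), the gamma-TIP and a main water channel of the vacuole membrane, went from 258, 198 and 199 TPM in air to 27.8, 30.3 and 31.7 TPM under submergence in WT (log2 fold change −2.82 ± 0.29 SE, adjusted p = 1.08e-06). TIP1-1 in phyA-211 went from 81.4, 183 and 185 TPM in air to 18.6, 38 and 28.6 TPM under submergence (log2 fold change −2.32 ± 0.29 SE, adjusted p = 7.53e-06). In ein3eil1, TIP1-1 went from 294, 226.9 and 222 TPM in air to 80.8, 85.2 and 55 TPM under submergence (log2 fold change −1.75 ± 0.29 SE, adjusted p = 9.66e-05). No air library was as low as a submerged library of its line, and these calls held under every alternative run. Submerged ein3eil1 was above submerged WT (log2 difference 1.25 ± 0.29 SE, adjusted p = 0.00292), and the difference of the responses was not called (difference 1.07 ± 0.42 SE, adjusted p = 0.0694, 95% interval 0.18 to 1.95).

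TIP1-2 (AT3G26520), the most abundant aquaporin of submerged WT leaves, was at 736, 608 and 682 TPM in air and 734, 739 and 776 TPM under submergence in WT (log2 fold change 0.15 ± 0.33 SE, adjusted p = 0.715). TIP1-2 in phyA-211 was at 262, 583 and 486 TPM in air and 334, 722 and 688 TPM under submergence (log2 fold change 0.39 ± 0.33 SE, adjusted p = 0.354). In ein3eil1, TIP1-2 fell from 623, 433 and 406 TPM in air to 253, 117 and 198 TPM under submergence (log2 fold change −1.41 ± 0.33 SE, adjusted p = 0.0018). The ein3eil1 groups were separate and those of WT and phyA-211 overlapped. The ein3eil1 response differed from that of WT (difference −1.56 ± 0.47 SE, adjusted p = 0.0229), a call lost without the second WT air, the first ein3eil1 air or the second submerged ein3eil1 library (adjusted p 0.0531 to 0.0618), and from that of phyA-211 (difference 1.79 ± 0.47 SE, adjusted p = 0.00766), a call lost with median centring (adjusted p = 0.053).

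TIP2-1 (AT3G16240), the delta-TIP, known to carry ammonia as well as water, rose from 162, 87.2 and 107 TPM in air to 331, 339.8 and 346 TPM under submergence in WT (log2 fold change 1.55 ± 0.42 SE, adjusted p = 0.00531). TIP2-1 in phyA-211 rose from 24.1, 101 and 71.7 TPM in air to 107, 175 and 181 TPM under submergence (log2 fold change 1.41 ± 0.42 SE, adjusted p = 0.0108), a call lost without the first air library (0.81, adjusted p = 0.0578). That call was also lost with only the libraries compared and with group-level weights. In ein3eil1, TIP2-1 was at 173, 106 and 125 TPM in air and 115, 64.5 and 52 TPM under submergence (log2 fold change −0.85 ± 0.42 SE, adjusted p = 0.0887). The submerged WT libraries were the highest 3 of all 18, and the ein3eil1 groups overlapped. The ein3eil1 response differed from that of WT (difference −2.40 ± 0.59 SE, adjusted p = 0.00739) and of phyA-211 (difference 2.26 ± 0.59 SE, adjusted p = 0.00758), and both held under every alternative run. The opposite-strand lncRNA AT3G03265 covers 3.87% of the TIP2-1 transcript and averaged 10.9 TPM in air and 105 TPM under submergence in WT, 4.62 and 24 TPM in phyA-211, and 8.83 and 6.52 TPM in ein3eil1. A second opposite-strand gene, AT3G16250, covers 10.1% of the TIP2-1 transcript and went the other way, from 91.4 to 10 TPM in WT, from 88.7 to 10.2 TPM in phyA-211 and from 71.2 to 14.4 TPM in ein3eil1. The part of either gene in the TIP2-1 values was not tested, and since the protocols do not state strand, reads of the overlap cannot be told apart.

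TIP2-2 (AT4G17340), a vacuolar water channel, fell from 65.7, 57.1 and 69.3 TPM in air to 24.3, 22.6 and 21.5 TPM under submergence in WT (log2 fold change −1.45 ± 0.21 SE, adjusted p = 2.65e-05). TIP2-2 in phyA-211 fell from 43, 60.8 and 53.5 TPM in air to 17, 24.5 and 22.8 TPM under submergence (log2 fold change −1.25 ± 0.21 SE, adjusted p = 0.000101). In ein3eil1, TIP2-2 fell from 45.5, 69.5 and 36.7 TPM in air to 16.8, 13.4 and 17.7 TPM under submergence (log2 fold change −1.56 ± 0.21 SE, adjusted p = 9.3e-06). The fall was 2.45-fold to 3.16-fold, and all groups were separate. TIP4-1 (AT2G25810) was between 0.17 and 2.27 TPM and fell in WT and ein3eil1, the WT call being lost without the third air or the first or the second submerged library (adjusted p 0.0506 to 0.0697). That WT call was also lost with median centring and quantile normalization, and the ein3eil1 call with median centring (adjusted p = 0.238). The 5 TIPs not tested were TIP1-3 (AT4G01470) and TIP5-1 (AT3G47440), known from pollen, TIP3-1 (AT1G73190) and TIP3-2 (AT1G17810), known from seeds, and TIP2-3 (AT5G47450). TIP3-1 was listed at 0 in all 18 libraries. TIP3-2 was listed at 0.46, 0.63 and 0.74 TPM in submerged WT, at 0.88 TPM in the second submerged phyA-211 library, at 0.04 TPM in the third submerged ein3eil1 library and at 0 elsewhere. The opposite-strand lncRNA AT1G05333 covers 48.1% of the TIP3-2 transcript. It averaged 0.523 TPM in submerged WT, 0.193 TPM in submerged phyA-211 and 0 in the other groups. A second opposite-strand gene, AT1G17820, covers 7.76% and averaged 8.22 to 12.1 TPM. The part of either gene in the TIP3-2 values was not tested.

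Among the NIPs, NIP2-1 rose from near 0 in every line and rose furthest in ein3eil1, and the boric acid channel NIP6-1 fell. NIP2-1 (AT2G34390), the lactic acid channel whose promoter holds 3 AAACCA matches, rose from 0.33, 0.58 and 0.41 TPM in air to 23.5, 21.9 and 19.8 TPM under submergence in WT (log2 fold change 3.98 ± 0.23 SE, adjusted p = 2.3e-09). NIP2-1 in phyA-211 rose from 0.47, 0.51 and 0.17 TPM in air to 18, 34.2 and 37.2 TPM under submergence (log2 fold change 4.42 ± 0.23 SE, adjusted p = 4.63e-10). In ein3eil1, NIP2-1 rose from 0.2, 0.79 and 0.69 TPM in air to 114, 141 and 121 TPM under submergence (log2 fold change 6.35 ± 0.23 SE, adjusted p = 1.35e-11). All 9 air libraries were under 1 TPM and all 9 submerged libraries at 18 TPM or more, so NIP2-1 passed the filter through the submerged groups only. Submerged ein3eil1 was 5.75-fold above submerged WT (log2 difference 2.47 ± 0.23 SE, adjusted p = 5.79e-07). The ein3eil1 response exceeded that of WT (difference 2.37 ± 0.33 SE, adjusted p = 9.72e-05) and of phyA-211 (difference −1.93 ± 0.33 SE, adjusted p = 0.000462), and both held under every alternative run. The difference between the phyA-211 and WT responses was not called, with a 95% interval of −0.26 to 1.13. The opposite-strand lncRNA AT2G08660 covers 94.1% of the NIP2-1 transcript and was listed at no more than 1.29 TPM in any library.

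NIP6-1 (AT1G80760), a boric acid channel known from shoot nodes, fell from 14.3, 20.4 and 13.1 TPM in air to 6.05, 6.21 and 5.28 TPM under submergence in WT (log2 fold change −1.29 ± 0.27 SE, adjusted p = 0.000779). NIP6-1 in phyA-211 fell from 14.6, 17.2 and 18.7 TPM in air to 5.2, 9.19 and 7.64 TPM under submergence (log2 fold change −1.12 ± 0.27 SE, adjusted p = 0.00244). That call was lost with group-level weights (adjusted p = 0.0632). In ein3eil1, NIP6-1 fell from 34.8, 27.7 and 15.1 TPM in air to 2.31, 3.09 and 1.68 TPM under submergence (log2 fold change −2.95 ± 0.27 SE, adjusted p = 1.78e-07). The fall was 2.73-fold, 2.29-fold and 11-fold, and the ein3eil1 response differed from that of WT (difference −1.66 ± 0.38 SE, adjusted p = 0.00443) and of phyA-211 (difference 1.83 ± 0.38 SE, adjusted p = 0.00185). The opposite-strand gene AT1G80750 covers 2.15% of the NIP6-1 transcript. It averaged 43.1 TPM in air and 110 TPM under submergence in WT, 46.1 and 120 TPM in phyA-211, and 62 and 61.6 TPM in ein3eil1. Its part in the NIP6-1 values was not tested. NIP5-1 (AT4G10380), the boric acid channel known for uptake in roots, was at 2, 2.19 and 2.33 TPM in air and 1.77, 2.22 and 2.65 TPM under submergence in WT (log2 fold change 0.01 ± 0.42 SE, adjusted p = 0.99). NIP5-1 in phyA-211 rose from 2, 1.62 and 3.22 TPM in air to 4.32, 7.53 and 6.19 TPM under submergence (log2 fold change 1.1 ± 0.42 SE, adjusted p = 0.0381), a call lost without any of 4 of the 6 libraries (adjusted p 0.0812 to 0.122). That call was also lost with no filter, with group-level weights and with the replicate block. In ein3eil1, NIP5-1 was at 17, 4.58 and 2.31 TPM in air and 3.31, 2.57 and 3.39 TPM under submergence (log2 fold change −0.77 ± 0.42 SE, adjusted p = 0.12). The first ein3eil1 air library was far above its replicates, and the phyA-211 response was called apart from that of ein3eil1 (difference 1.87 ± 0.59 SE, adjusted p = 0.0189), a call lost with median centring, quantile normalization, only the libraries compared and group-level weights (adjusted p up to 0.118).

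NIP1-2 (AT4G18910), known in Arabidopsis for aluminium malate transport, fell from 17.1, 19.9 and 23.1 TPM in air to 11.3, 8.73 and 8 TPM under submergence in WT (log2 fold change −1.03 ± 0.21 SE, adjusted p = 0.000588). NIP1-2 in phyA-211 fell from 14.9, 15.5 and 20.6 TPM in air to 7.01, 8.86 and 8.67 TPM under submergence (log2 fold change −0.96 ± 0.21 SE, adjusted p = 0.00104). In ein3eil1, NIP1-2 fell from 28.1, 23.8 and 18.5 TPM in air to 15.8, 9.46 and 10.7 TPM under submergence (log2 fold change −0.93 ± 0.21 SE, adjusted p = 0.00107). The fall was 1.96-fold to 2.14-fold, and the groups of each line were separate. NIP1-1 (AT4G19030) passed the filter only through ein3eil1 in air and fell in phyA-211 and ein3eil1, at 0 to 1.79 TPM. Its phyA-211 call was lost with group-level weights (adjusted p = 0.141) and its ein3eil1 call with median centring (adjusted p = 0.0815). NIP7-1 (AT3G06100), a boric acid channel known from anthers, was between 0.13 and 2.34 TPM and was called higher in phyA-211 with overlapping groups, a call lost without any of 5 of the 6 libraries (adjusted p 0.058 to 0.169). NIP3-1 (AT1G31885) was between 0.13 and 3.06 TPM and was not called in any line. NIP4-1 (AT5G37810) and NIP4-2 (AT5G37820), known from pollen, were listed at 0 in all 18 libraries.

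Among the SIPs, SIP2-1 fell in all 3 lines. SIP2-1 (AT3G56950), a channel of the endoplasmic reticulum, fell from 36.4, 36.5 and 40.3 TPM in air to 17.4, 16.7 and 14.4 TPM under submergence in WT (log2 fold change −1.18 ± 0.17 SE, adjusted p = 3.61e-05). SIP2-1 in phyA-211 went from 43.2, 37 and 42.7 TPM in air to 23, 36.6 and 30.5 TPM under submergence (log2 fold change −0.46 ± 0.17 SE, adjusted p = 0.0378), a call lost without any of 4 of the 6 libraries (adjusted p 0.0577 to 0.145). That call was also lost with only the libraries compared and with group-level weights. In ein3eil1, SIP2-1 fell from 65.3, 69.8 and 52.3 TPM in air to 14.1, 20.0 and 14.5 TPM under submergence (log2 fold change −1.89 ± 0.17 SE, adjusted p = 1.91e-07). WT and ein3eil1 groups were far apart and those of phyA-211 nearly touched. The responses of phyA-211 and ein3eil1 differed (difference 1.44 ± 0.24 SE, adjusted p = 0.000483), which held under every alternative run. The differences of SIP2-1 from WT were called in phyA-211 (difference 0.72 ± 0.24 SE, adjusted p = 0.0448) and in ein3eil1 (difference −0.72 ± 0.24 SE, adjusted p = 0.0399), and were lost without any of 11 and 9 of 12 libraries. AT3G56940 on the opposite strand overlaps 6.8% of the SIP2-1 transcript. It averaged 1060 TPM in air and 232 TPM under submergence in WT, 992 and 188 TPM in phyA-211, and 857 and 216 TPM in ein3eil1. Its part in the SIP2-1 values was not tested.

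SIP1-1 (AT3G04090), the most abundant SIP, was at 84, 81.2 and 87.6 TPM in air and 62.1, 61 and 58.8 TPM under submergence in WT (log2 fold change −0.47 ± 0.14 SE, adjusted p = 0.0106). SIP1-1 in phyA-211 was at 67, 70.2 and 73.3 TPM in air and 60.8, 88 and 93.6 TPM under submergence (log2 fold change 0.18 ± 0.14 SE, adjusted p = 0.313). In ein3eil1, SIP1-1 was at 124, 132 and 110.0 TPM in air and 77.8, 90.5 and 78 TPM under submergence (log2 fold change −0.56 ± 0.14 SE, adjusted p = 0.00268). The WT and ein3eil1 decreases, called on this scale, became −0.00 and −0.03 after median centring and were then not called. SIP1-2 (AT5G18290) was between 1.43 and 6.1 TPM and rose in WT (log2 fold change 0.85 ± 0.23 SE, adjusted p = 0.00583).

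The lines were also compared within each condition. In air 12 members were called between ein3eil1 and WT, where 28.3% of all genes were (25.6% higher and 2.73% lower). Of the 12, 9 were higher and 3 lower (1 and 7 after median centring, beside 4.05% and 7.64% of all genes). The 9 higher ones were PIP1-4, PIP2-4, PIP2-5, PIP2-7, PIP2-8, NIP1-1 and all 3 SIPs, and the lower ones were PIP2-2, PIP2-3 and PIP2-6. Only PIP2-8 (log2 difference 1.61 ± 0.34 SE, adjusted p = 0.0045) kept its call under every alternative, and the count was 4 without the second WT air library, 6 without the first ein3eil1 air library and 8 without the third WT air library. Under submergence 15 members were called between ein3eil1 and WT, where 44.5% of all genes were (28.5% higher and 16% lower). Of the 15, 7 were higher and 8 lower (5 and 12 after median centring, beside 18.9% and 30.1% of all genes). Higher were PIP1-4, PIP2-3, PIP2-5, PIP2-7, TIP1-1, NIP2-1 and SIP1-1, and lower were PIP1-1, PIP1-3, PIP1-5, PIP2-2, PIP2-6, TIP1-2, TIP2-1 and NIP6-1. The largest of these differences were NIP2-1 above WT and TIP2-1 (log2 difference −2.20 ± 0.42 SE, adjusted p = 0.00058) and TIP1-2 (log2 difference −2.05 ± 0.33 SE, adjusted p = 0.000147) below it. All but PIP2-7 and SIP1-1 kept their calls under every alternative run.

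Between phyA-211 and WT, 1 member was called in air (1.63% of all genes were higher and 2.38% lower) and 6 under submergence, where 39.1% of all genes were called (32.7% higher and 6.44% lower). The 4 higher were PIP2-2, NIP5-1, SIP1-1 and SIP2-1, and the 2 lower were PIP2-6 and TIP2-1. After median centring 0 members were higher and 9 lower, beside 11.6% and 20.2% of all genes. PIP2-6 (log2 difference −0.65 ± 0.16 SE, adjusted p = 0.00672) kept its call under every alternative run. TIP2-1 (log2 difference −1.17 ± 0.42 SE, adjusted p = 0.0387) lost it without any 1 of the 6 libraries (adjusted p 0.0734 to 0.112). The count of 6 was again 6 without the first submerged phyA-211 library, which stands apart, and was 2 to 3 without the second or the third submerged phyA-211 library or any submerged WT library.

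The submergence responses themselves differed between lines for 14 of 28 members in at least 1 of 3 comparisons, beside 61.7% of all genes tested. Between ein3eil1 and WT 10 members were called, where 27.4% of all genes were (10.8% positive and 16.6% negative), 2 of them positive and 8 negative, and the median difference of members was −0.32 beside −0.20 over all genes. NIP2-1 and PIP2-3 were positive, and PIP1-1, PIP1-3, PIP2-6, PIP2-8, TIP1-2, TIP2-1, NIP6-1 and SIP2-1 negative. All but PIP2-6 kept their calls under median centring and quantile normalization. Between phyA-211 and WT 4 members were called, where 24.6% of all genes were (20.4% positive and 4.19% negative), all of them positive: PIP2-2 (difference 1.00 ± 0.32 SE, adjusted p = 0.0383), PIP2-3, SIP1-1 (difference 0.65 ± 0.20 SE, adjusted p = 0.0349) and SIP2-1. None of these 4 kept its call under both scalings, and the count was 5 without the first submerged phyA-211 library, 3 without the second phyA-211 air library, 1 without any other air library or the first or the second submerged WT library, and 0 without the third submerged WT library or the second or the third submerged phyA-211 library. Between phyA-211 and ein3eil1 13 members were called, where 46.5% of all genes were (37.7% positive and 8.82% negative). Of the 13, 11 were positive and 2 negative (4 and 4 after median centring, beside 12% and 16.6% of all genes). PIP2-2, TIP2-1, NIP2-1, NIP6-1 and SIP2-1 kept their calls under every alternative run. PIP2-8 lost its call in 14 of 19 alternatives, 9 of them the omission of 1 library, and SIP1-1 lost it with median centring (0.13). All 3 comparisons of response share libraries, so each member's values stand side by side and are not independent of one another.

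**Figure D4:**
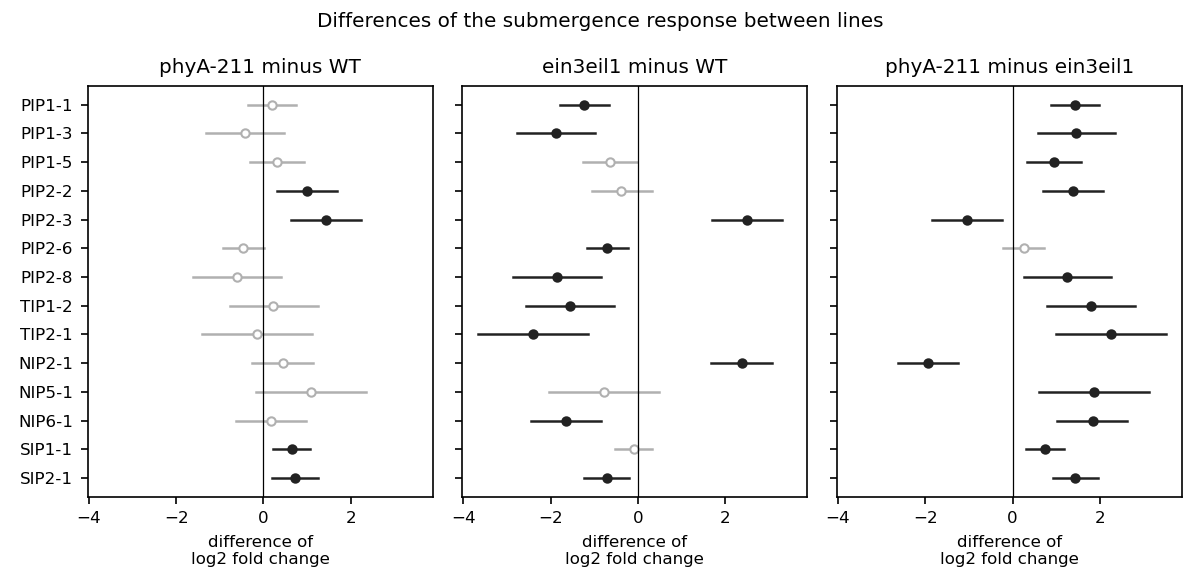
Differences of the submergence response between lines, in log2 units, for the 14 members called in at least 1 of the 3 comparisons, with 95% confidence intervals and filled points where called. NIP2-1 and PIP2-3 lie right of 0 for ein3eil1 minus WT, at 2.37 and 2.49, and TIP2-1 lies furthest left at −2.40.

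Genes that act on aquaporins or their cargo were followed as a list of 17, of which 14 were tested. In WT 5 were called higher and 2 lower under submergence, in phyA-211 9 and 0, and in ein3eil1 6 and 3, where 18.9% and 38%, 27.3% and 23.9%, and 17% and 47.3% of all genes were. The list had medians of −0.16, 0.77 and 0.33 beside −0.32, 0.07 and −0.48 over all genes. LDH1, the lactate dehydrogenase, whose product NIP2-1 is known to carry, was at 11.5, 8.98 and 12.7 TPM in WT air and 15.7, 16.2 and 16.65 TPM under submergence. LDH1 in ein3eil1 was at 23.4, 21.5 and 18.7 TPM in air and 138, 142 and 122 TPM under submergence. Like NIP2-1, it was highest in submerged ein3eil1 and its groups were separate in each line. Other genes of the list also had their highest mean in submerged ein3eil1, SYP121 among them at 153 TPM. Under submergence 28.5% of all genes tested were called higher in ein3eil1 than in WT. LDH1 rose by 0.52 ± 0.20 SE, adjusted p = 0.033 in WT, 1.55 ± 0.20 SE, adjusted p = 7.12e-06 in phyA-211 and 2.61 ± 0.20 SE, adjusted p = 2.25e-08 in ein3eil1.

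BOR1, the boron exporter known to act beside NIP5-1 and NIP6-1, fell in WT (−1.41 ± 0.30 SE, adjusted p = 0.00093) and in ein3eil1 (−2.68 ± 0.30 SE, adjusted p = 1.66e-06) and was not called in phyA-211 (−0.65 ± 0.30 SE, adjusted p = 0.0841). RMA1, a ubiquitin ligase known to hold back PIP2-1 on its way to the plasma membrane, rose in WT (2.67 ± 0.17 SE, adjusted p = 6.99e-09), in phyA-211 (2.51 ± 0.17 SE, adjusted p = 9.75e-09) and less in ein3eil1 (1.08 ± 0.17 SE, adjusted p = 6.27e-05), and the ein3eil1 and WT responses differed (−1.59, adjusted p = 0.000252). OST1, a kinase known to phosphorylate PIP2-1 in guard cells, rose in WT (1.66 ± 0.13 SE, adjusted p = 6.71e-08), phyA-211 (1.53 ± 0.13 SE, adjusted p = 1.33e-07) and ein3eil1 (1.2 ± 0.13 SE, adjusted p = 1.72e-06). VAP27-1, a membrane contact protein of a family known to bind PIPs, rose in WT (1.32 ± 0.14 SE, adjusted p = 1.5e-06) and phyA-211 (0.79 ± 0.14 SE, adjusted p = 0.000241). SYP121, a vesicle fusion protein known to deliver PIP2-7, rose in phyA-211 (1.08 ± 0.28 SE, adjusted p = 0.00502) and ein3eil1 (1.06 ± 0.28 SE, adjusted p = 0.00428). Submerged phyA-211 libraries held SYP121 at 30.3, 83.2 and 99.3 TPM, beside 29.9, 30.0 and 28.5 TPM in air, so the first submerged library stayed near the air level. RMA3 rose in phyA-211 (1.81 ± 0.26 SE, adjusted p = 3.13e-05), from 15.8, 19.65 and 17.4 TPM in air to 33.7, 91.4 and 85.2 TPM under submergence. SIRK1, a receptor kinase known to phosphorylate PIPs, fell in WT (−1.0 ± 0.28 SE, adjusted p = 0.00666) and ein3eil1 (−1.74 ± 0.28 SE, adjusted p = 6.68e-05).

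Summed marker levels of leaf cell types also differed between air and submergence. Of all genes tested, 38% were called lower in WT, 23.9% in phyA-211 and 47.3% in ein3eil1, the shares to set beside the counts below. In phyA-211, 27.3% of all genes were called higher. The mesophyll list summed to 33579 to 37207 TPM in WT air and 18900 to 20710 TPM under submergence, with 6 of 8 genes called lower. It went from 19925 to 41027 TPM to 9661 to 11519 TPM in phyA-211, with 7 of 8 lower, and from 22495 to 24485 TPM to 8577 to 16633 TPM in ein3eil1, with 6 of 8 lower. The epidermis list went from 2119 to 2469 TPM to 1197 to 1278 TPM in WT, from 2054 to 2584 TPM to 442 to 739 TPM in phyA-211 and from 1724 to 2004 TPM to 616 to 853 TPM in ein3eil1, with 5, 3 and 5 of 6 genes lower, and LTP1 made up most of the sum on average. The vascular list went from 171 to 207 TPM to 126 to 133 TPM in WT, where SUC2 was the 1 of 8 genes called lower (54.3 to 10 TPM). It went from 223 to 244 TPM to 148 to 209 TPM in phyA-211, with 2 of 8 lower, and from 295 to 408 TPM to 161 to 188 TPM in ein3eil1, with 6 of 8 lower. The guard cell list went from 70.7 to 83.1 TPM to 56.2 to 62 TPM in WT, from 71.7 to 76.7 TPM to 49.6 to 60.2 TPM in phyA-211 and from 94 to 106 TPM to 43.5 to 55.2 TPM in ein3eil1, with 3, 3 and 2 of 6 genes lower and HT1 higher in phyA-211. Their part in the aquaporin values was not tested.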

How the data were processed

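Leaf RNA of 18 libraries was measured, in 6 groups of 3. The deposited values are TPM computed by the authors. The unit was inferred from the values, since the columns are not whole numbers and each sums to between 996105 and 998620. Per the submitters' processing notes, which give no roles or versions, fastp, cutadapt, HISAT2 and DESeq2 were used with the genome TAIR10, and the read depth is not given in the sources used here.

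Of 32833 genes, the 20302 at 1 TPM or more in at least 3 libraries were fitted as log2(TPM + 1) with limma 3.58.1 in R 4.3.3 (trend and robust moderation, all 18 libraries, 1 mean per group, 12 residual degrees of freedom, two-sided). The p-values were adjusted by Benjamini-Hochberg over all genes tested in each of 10 comparisons. The fit was tested on simulated data. An exact permutation test of 3 against 3 cannot go below 0.1 and was not used. Same-numbered libraries deviated together (correlation over 0.1) in 7 of 45 pairs, so the numbers were not taken as pairs and the reported fit has no block. The air and submerged libraries of phyA-211 correlated at 0.438, 0.201 and 0.0899 by number, the first being the highest of all pairs. Those of WT and ein3eil1 correlated at 0.0887 or less, so a shared replicate effect in phyA-211 is not modelled by the reported fit. Alternatives were median centring, quantile normalization, a pseudocount of 0.1, no filter, a fit of only the libraries compared, group-level weights, a replicate block, and leaving out each library in turn.

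The members, the marker lists and the partner list were chosen with earlier results of these data known. Values in every library are given for members called in a difference of response, members called with an absolute log2 fold change of at least 1 under submergence in a line, and the member of highest mean TPM in each subfamily, and the others are given by range. Partner genes are named by the same threshold of 1, and the rest are counted. Sequences came from RefSeq TAIR10.1, and its coordinates are used for these sequences only.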

Additional observations from a re-analysis of the deposited data

Results flagged for a closer look

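The submergence response of 14 aquaporin genes differed between lines by the interaction term of the limma fit, in 27 comparisons of 1 gene. Values are differences of log2 fold changes. For ein3eil1 minus WT they were 2.49 for PIP2-3, 2.37 for NIP2-1, −2.40 for TIP2-1, −1.88 for PIP1-3, −1.85 for PIP2-8, −1.66 for NIP6-1, −1.56 for TIP1-2, −1.23 for PIP1-1, −0.72 for SIP2-1 and −0.71 for PIP2-6. For phyA-211 minus WT they were 1.43 for PIP2-3, 1.00 for PIP2-2, 0.72 for SIP2-1 and 0.65 for SIP1-1. For phyA-211 minus ein3eil1 they were 2.26 for TIP2-1, 1.87 for NIP5-1, 1.83 for NIP6-1, 1.79 for TIP1-2, 1.46 for PIP1-3, 1.44 for SIP2-1, 1.42 for PIP1-1, 1.38 for PIP2-2, 1.25 for PIP2-8, 0.95 for PIP1-5, 0.74 for SIP1-1, −1.05 for PIP2-3 and −1.93 for NIP2-1. The 3 sets share libraries. Calls kept under every alternative run were 7 of 10 for ein3eil1 minus WT, 0 of 4 for phyA-211 minus WT and 5 of 13 for phyA-211 minus ein3eil1, where PIP2-8 lost its call in 14 of 19 alternatives and SIP1-1 lost its call at 0.13 with median centring.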

How the results depend on the processing

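Counts of aquaporin genes called that moved by more than 1.5 times were these. The 5 higher in phyA-211 became 3 with no filter, 3 with only the libraries compared, 2 with group-level weights and 3 with the replicate block. The 1 higher in ein3eil1 became 3 with median centring and 2 with quantile normalization. The 1 called between phyA-211 and WT in air became 0 with only the libraries compared, and the 6 under submergence became 2 with quantile normalization and 2 with group-level weights. The 4 differences of response between phyA-211 and WT became 2 with median centring, 0 with quantile normalization, 2 with no filter and 1 with only the libraries compared. The 13 between phyA-211 and ein3eil1 became 8 with median centring. Median centring reversed PIP1-1 in WT to 0.01, PIP2-6 in WT to 0.04, and SIP1-1 in phyA-211 against WT under submergence to −0.08. The cause was not tested.

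Leaving out 1 library at a time gave 4 higher and 11 to 14 lower in WT, 2 to 5 higher and 13 to 15 lower in phyA-211, and 1 to 2 higher and 19 to 20 lower in ein3eil1. It gave 0 to 2 calls between phyA-211 and WT in air and 2 to 6 under submergence, 4 to 12 and 13 to 15 between ein3eil1 and WT, and 0 to 5, 7 to 10 and 11 to 14 differences of response for phyA-211 minus WT, ein3eil1 minus WT and phyA-211 minus ein3eil1. TPM keeps no depth, so counting error of low genes such as PIP2-4 and NIP1-1 is unknown.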
